A study of Homo sapiens with 12 samples.

Results

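The PTBP, NOVA and ELAVL proteins are 3 families of RNA-binding proteins that control splicing and the fate of mRNAs, and their 9 genes (PTBP1, PTBP2, PTBP3, NOVA1, NOVA2, ELAVL1, ELAVL2, ELAVL3 and ELAVL4) were followed through 12 RNA-seq libraries of HEK293, a human embryonic kidney cell line. The genes were chosen by symbol, and all 9 were present among the 38927 gene identifiers of the gene count tables. Circular RNAs (circRNAs), whose ends are joined by a back-splice from an exon to itself or to one upstream of it, were taken by the name of the host gene. They came to 21 of 29693 circRNAs in experiment 1 and 20 of 26796 in experiment 2. Of the 9 genes, 7 had enough reads for a test in both experiments, and ELAVL3 and ELAVL4 did not.

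In experiment 1, cells of an inducible line kept on doxycycline (induced) were set against untreated cells of that line (uninduced). In experiment 2, doxycycline-treated cells of the inducible line (induced) were set against HEK293 parental cells that also had doxycycline. Each of the 4 groups had 3 libraries. The inducible line, labelled HEK293_Flp In/TO △Fox2_Flag_mFox1, descends from a clone deficient in RBFOX2 and carries HA- and Flag-tagged Rbfox1 of the mouse behind a promoter that doxycycline switches on. RBFOX1 and RBFOX2 are paralogous splicing factors. The labels give 0.5 µg/ml doxycycline for 2 weeks, in a protocol that describes the inducible line, and the same was assumed for the parental cells. In experiment 1 the drug and the induced RBFOX1 cannot be told apart, and in experiment 2 neither can RBFOX1, the loss of RBFOX2 and the history of a single clone. The labels do not say that the replicates were separate cultures, and the p-values cover only the spread among libraries, which may be technical.

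PTBP proteins bind pyrimidine-rich RNA and mostly hold back the exons beside it. PTBP1 is made in most cells, and in neurons it gives way to PTBP2, whose mRNA PTBP1 otherwise splices into a form that is degraded. PTBP3, also called ROD1, is the third paralog. NOVA1 and NOVA2 bind YCAY motifs and direct alternative splicing in neurons. ELAVL1 (HuR) is made in most cells and stabilises mRNAs with AU-rich elements. ELAVL2, ELAVL3 and ELAVL4 (HuB, HuC and HuD) are its neuronal relatives, of which ELAVL2 is also made in the gonads.

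Libraries held between 34025315 and 55298749 gene reads in experiment 1 and between 37663525 and 50261916 in experiment 2. Back-splice reads numbered 10004 to 22661 and 18945 to 28691 per library. Levels are given as CPM, a gene's reads relative to all gene reads of its library, scaled by TMM over all 12 libraries. They compare a gene between groups, not one gene with another, since no gene lengths were used. RBFOX1 stood at 42.1 ± 0.492 CPM in induced and 4.04 ± 0.616 CPM in uninduced cells of experiment 1, and at 37.5 ± 0.888 CPM in induced cells of experiment 2, against 0 reads in all 3 parental libraries (SD, n = 3). RBFOX2 stood at 57.6 ± 2.61 CPM in induced and 57.6 ± 4.35 CPM in uninduced cells, and at 47.4 ± 4.18 CPM in induced and 171 ± 0.685 CPM in parental cells. The mitochondrial RNA MT-RNR2 took 21.7% to 24.1% of reads in experiment 1 and 0.0286% to 0.0638% in experiment 2, so levels set across experiments compare libraries of unlike makeup. Uninduced library 3 stood apart from its group. It had the lowest depth, and its counts differed from those of the other uninduced libraries by a chi-square per degree of freedom of 40.6 and 35.5, against 5.72 to 19.6 for the other pairs of experiment 1. VIM, KRT8, KRT18, INA and PAX2, which mark HEK293, averaged over 1 CPM in all 4 groups, while NEFM, a neurofilament also on that list, averaged 0.210, 0.395 and 0.470 CPM in induced and uninduced cells of experiment 1 and induced cells of experiment 2, against 33.6 CPM in parental cells. The HEK293 list held 8 genes, and 6 of them were among the gene counts of each experiment, without LHX1 and NEFL. Markers of fibroblasts, blood cells and hepatocytes summed to at most 7.46 CPM per list in any library.

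Across the members, experiment 1 had small changes in PTBP2 and PTBP3 and a larger fall in NOVA2, while experiment 2 had a rise in ELAVL2 and PTBP2 and again a fall in NOVA2. In experiment 1, PTBP2 rose and PTBP3 and NOVA2 fell, so that 3 of the 7 tested members were called at an adjusted p under 0.05. Of all 18978 tested genes 20.9% were called, 10.5% as higher and 10.4% as lower in induced cells. In experiment 2, ELAVL2, PTBP2 and PTBP3 rose and NOVA2 and PTBP1 fell, which is 5 of 7. Of all 17945 tested genes 65.0% were called there, 32.1% as higher and 32.9% as lower in induced cells. ELAVL1 and NOVA1 were called in neither. The median absolute log2 fold change over all tested genes was 0.183 in experiment 1 and 0.394 in experiment 2. Adjusted p-values are Benjamini-Hochberg values over all tested genes, from the quasi-likelihood test of edgeR. In experiment 1 the 3971 genes called became 1581 without induced library 1, 1678 without induced library 3 and 2104 without uninduced library 2.

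**Figure D1:**
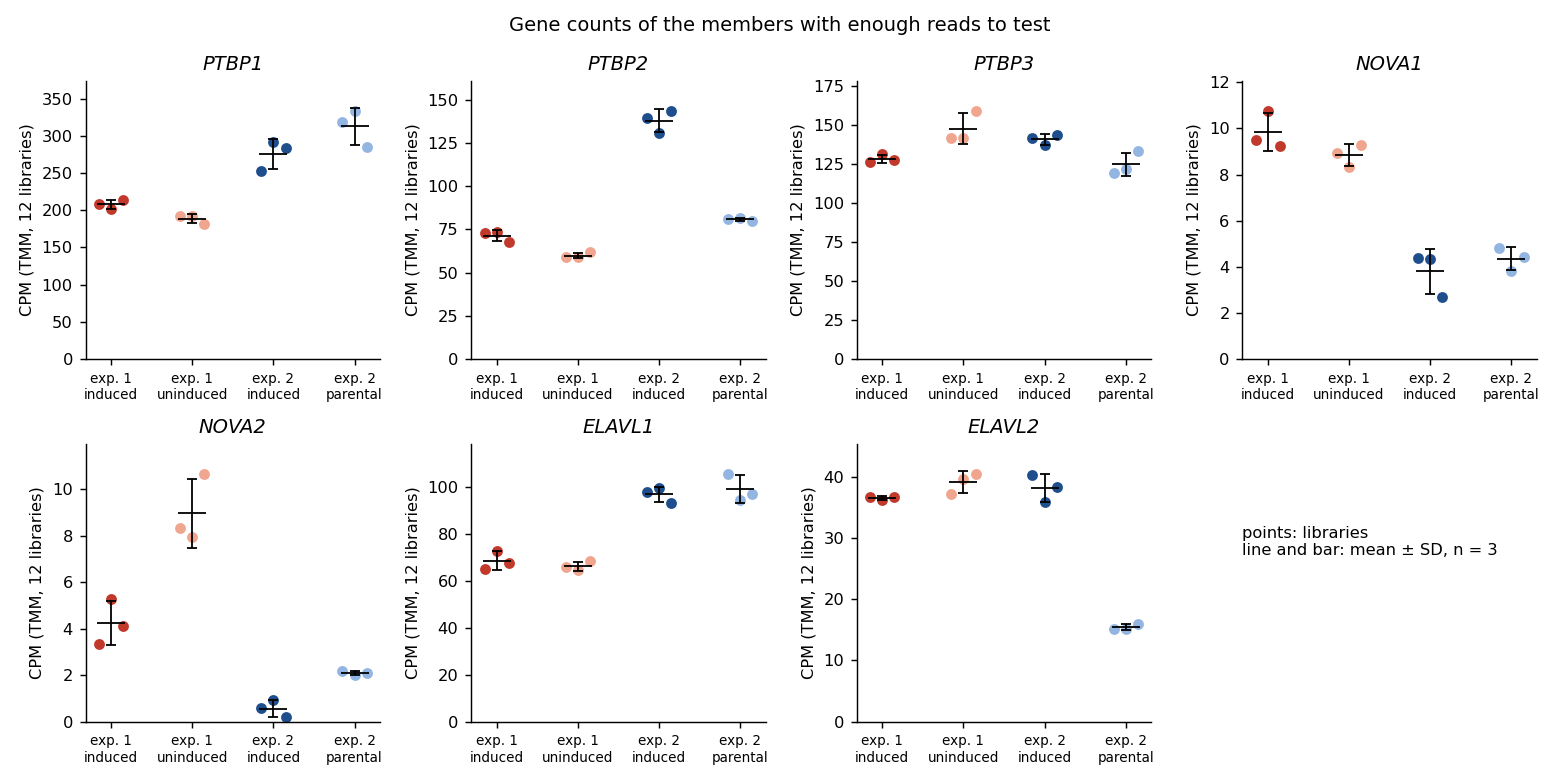
Level of each tested member (y axis, CPM scaled by TMM over 12 libraries) in the 4 groups (x axis). Points are libraries and bars are the mean ± SD (n = 3). ELAVL2 stood between 35.8 and 40.5 CPM in the 3 groups of the inducible line and between 15.1 and 15.96 CPM in parental cells.

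**Figure D2:**
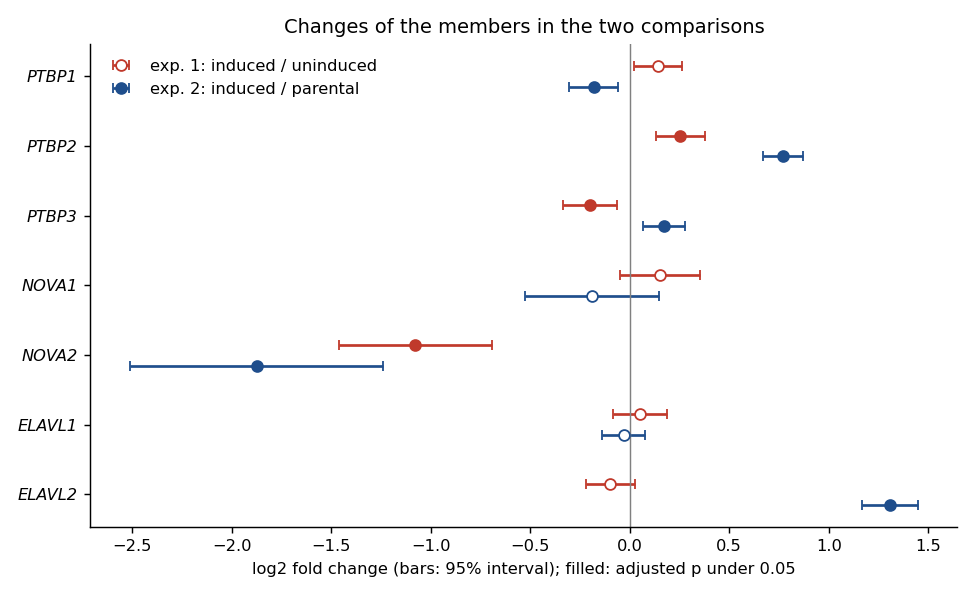
Log2 fold change of each tested member (x axis) with its 95% interval (bars), for induced over uninduced cells (red) and induced over parental cells (blue). Filled points have an adjusted p under 0.05. NOVA2 lies lowest in both comparisons, at -1.08 and -1.88.

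PTBP2 (ENSG00000117569, chromosome 1), the paralog of neurons, was higher in induced cells in both experiments. In experiment 2 its level was 139, 131 and 144 CPM in the induced libraries, against 81.2, 81.8 and 79.996 CPM in the parental ones. The lowest induced library stood far above the highest parental one, and the fold was 1.70 (log2 0.77, SE 0.0484, adjusted p = 1.02e-11, edgeR). Of tested genes, 24.8% had a larger absolute change. In experiment 1 it had 73.0, 73.5 and 67.6 CPM in induced and 58.9, 58.9 and 61.8 CPM in uninduced libraries. The groups did not overlap there either. The log2 fold change was smaller, at 0.25 (SE 0.0549, adjusted p = 0.0129, edgeR), and 36.7% of tested genes had a larger absolute change. This call ended without induced library 1 (adjusted p = 0.0627) and without uninduced library 2 (adjusted p = 0.0555), at 0.24 each time. The rise in experiment 2 exceeded that in experiment 1 by 0.51 on the log2 scale (SE 0.0749, adjusted p = 1.37e-05, edgeR interaction over 12 libraries). Such an interaction was called in 52.2% of 19942 tested genes and in 4 of the 7 members. Across the 4 groups PTBP2 stood highest in induced cells of experiment 2, then in parental, induced and uninduced cells, with no overlap between neighbours. The induced groups, both of the same treated line, averaged 138 CPM in experiment 2 and 71.4 CPM in experiment 1. The order thus sets side by side experiments whose libraries differ in makeup.

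PTBP1 (ENSG00000011304, chromosome 19), the widely expressed paralog, changed little. In experiment 2 it had 252, 291 and 283 CPM in induced libraries, against 319, 334 and 285 CPM in parental ones. The ranges overlapped. Its log2 fold change was -0.18 (SE 0.0592, adjusted p = 0.011, edgeR), and 75.7% of tested genes had a larger absolute change. The call ended without induced library 1 (log2 -0.12, adjusted p = 0.119) and without parental library 2 (log2 -0.14, adjusted p = 0.0671). In experiment 1 it had 209, 202 and 214 CPM in induced and 193, 192 and 182 CPM in uninduced libraries. All induced libraries lay above all uninduced ones, at a log2 fold change of 0.14 that did not pass the test (95% interval 0.022 to 0.26, adjusted p = 0.0912). Between the experiments its change differed by -0.32 on the log2 scale (SE 0.093, adjusted p = 0.00707). PTBP1P, a pseudogene of PTBP1, had at most 3 reads in any library of experiment 1.

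PTBP3 (ENSG00000119314, chromosome 9) moved in opposite directions in the 2 experiments. In experiment 1 it had 126, 131 and 128 CPM in induced libraries, against 142, 142 and 159 CPM in uninduced ones. The groups stood apart, with the highest value in uninduced library 3. The log2 fold change was -0.20 (SE 0.0602, adjusted p = 0.0436, edgeR), and 46.5% of tested genes had a larger absolute change. That call held without uninduced library 3 (adjusted p = 0.043) and ended without any of the other 5 libraries (adjusted p = 0.061 to 0.156). It also ended when total counts replaced TMM (log2 -0.22, adjusted p = 0.0794). In experiment 2 PTBP3 had 142, 137 and 144 CPM in induced libraries, against 119.5, 122 and 133 CPM in parental ones. The groups were again apart, now with induced cells higher. The log2 fold change was 0.17 (SE 0.0508, adjusted p = 0.00494, edgeR), and 76.6% of tested genes had a larger absolute change. The difference between the 2 changes was 0.37 (SE 0.0813, adjusted p = 0.000787).

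PTBP2 was also set against PTBP1 within each library. In experiment 2, for every 100 PTBP1 reads there were 55.2, 44.8 and 50.7 PTBP2 reads in induced libraries, against 25.4, 24.5 and 28.0 in parental ones. The ratio of the 2 read counts does not depend on scaling, and the groups were far apart. The exact two-sided permutation test cannot go below 0.1 with 3 against 3 libraries, so no p is given for the ratio. In experiment 1 the ratio was 35.0, 36.4 and 31.6 in induced and 30.6, 30.7 and 34.0 in uninduced libraries, and the groups overlapped. PTBP3 reads per 100 PTBP1 reads averaged 61.8 ± 2.78 in induced and 78.5 ± 8.03 in uninduced cells, and 51.4 ± 4.62 in induced and 40.2 ± 5.64 in parental cells (SD, n = 3). Gene counts do not separate the PTBP2 mRNA that carries its regulated exon from the form that skips it.

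**Figure D3:**
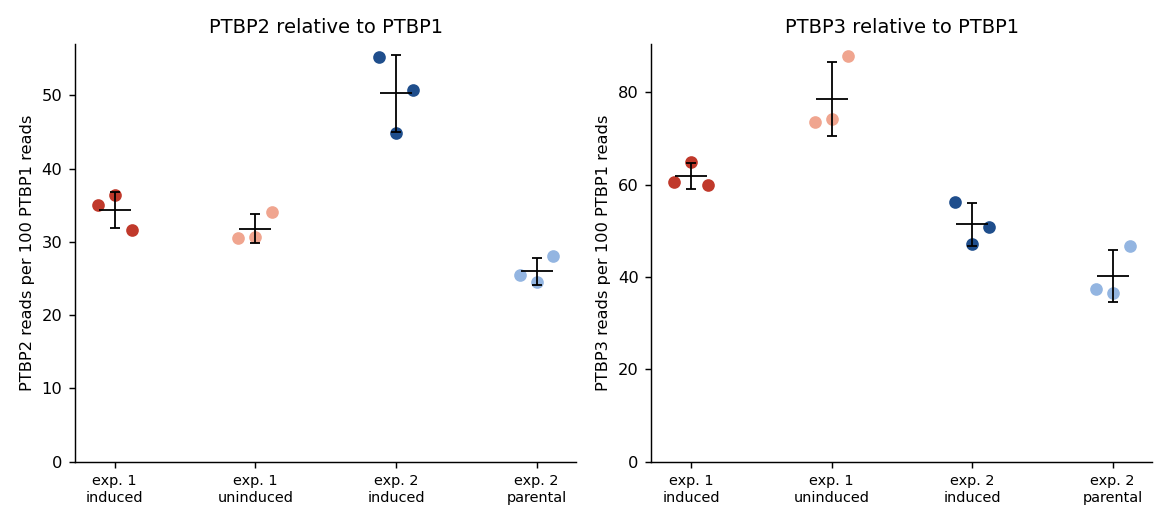
Reads of PTBP2 (left) and PTBP3 (right) per 100 PTBP1 reads (y axes) in the 4 groups (x axes). Points are libraries and bars are the mean ± SD (n = 3). For PTBP2 the induced libraries of experiment 2 lie between 44.8 and 55.2, above every other library.

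PTBP2 and NOVA2 were the members called in the same direction in both experiments, and their promoter windows are printed for that reason. The windows come from RefSeq (GRCh38.p14) and run from 250 bases before to 50 bases after the annotated start. Capitals mark GC boxes (GGGCGG or CCGCCC), searched on both strands.
PTBP2, chr1:96722388-96722687, plus strand: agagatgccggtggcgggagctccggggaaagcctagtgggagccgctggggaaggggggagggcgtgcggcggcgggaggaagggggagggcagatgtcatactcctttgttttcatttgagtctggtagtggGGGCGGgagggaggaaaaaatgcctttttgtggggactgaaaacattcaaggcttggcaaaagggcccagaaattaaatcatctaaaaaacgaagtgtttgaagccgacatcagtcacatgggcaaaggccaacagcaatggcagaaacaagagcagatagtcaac
NOVA2, chr19:45973816-45974115, minus strand: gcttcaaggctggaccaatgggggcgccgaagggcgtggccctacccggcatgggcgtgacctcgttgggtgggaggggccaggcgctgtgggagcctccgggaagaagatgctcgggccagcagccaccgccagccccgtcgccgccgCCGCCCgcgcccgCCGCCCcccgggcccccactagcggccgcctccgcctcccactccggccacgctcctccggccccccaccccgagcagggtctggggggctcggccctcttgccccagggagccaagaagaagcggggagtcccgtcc

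The PTBP2 window had 54% G and C, 11 CpG sites and 1 GC box, and the NOVA2 window 76.7% G and C, 30 CpG sites and 2 GC boxes. Over 35116 RefSeq windows of this length the median was 58.7% G and C and 14 CpG sites, and 45% held a GC box. The NOVA2 window also held 1 CCAAT (searched with ATTGG), which 34.6% of the windows hold. These are matches of letters and say nothing about which factors bind there. RefSeq windows were also matched for PTBP1, PTBP3, NOVA1, ELAVL2 and ELAVL4.

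NOVA2 (ENSG00000104967, chromosome 19), a splicing regulator of the cortex and of blood vessels, fell in both experiments. In experiment 1 it had 3.34, 5.26 and 4.14 CPM in induced libraries, against 8.31, 7.93 and 10.7 CPM in uninduced ones. The groups stood apart, at a log2 fold change of -1.08 (SE 0.171, adjusted p = 0.00376, edgeR), and 1.64% of tested genes had a larger absolute change. The change lay between -1.26 and -0.92 in every alternative, with adjusted p at most 0.0243. In experiment 2 it had 0.570, 0.930 and 0.200 CPM in induced libraries, against 2.19, 2.02 and 2.09 CPM in parental ones. These rest on 23, 38 and 8 reads in induced and 95, 98 and 113 reads in parental libraries. The log2 fold change was -1.88 (95% interval -2.51 to -1.24, adjusted p = 1.57e-05), with 6.57% of tested genes larger. The induced group of experiment 2 thus lay below that of experiment 1 in every library, although both came from the same treated line. The 2 falls differed by -0.80 on the log2 scale, which did not pass the test (95% interval -1.57 to -0.016, adjusted p = 0.0817). That difference passed without induced library 1 of experiment 1 (adjusted p = 0.045) and without uninduced library 3 (adjusted p = 0.0233). It also passed without induced library 2 of experiment 2 (adjusted p = 0.00773) and with DESeq2 (adjusted p = 0.0453). In the other 13 of 17 alternatives it did not pass. With 1 library left out it lay between -1.38 and -0.42, with adjusted p up to 0.284 (edgeR interaction).

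NOVA1 (ENSG00000139910, chromosome 14), the NOVA protein of the hindbrain and spinal cord, was called in neither experiment. It had 9.50, 10.8 and 9.22 CPM in induced and 8.95, 8.33 and 9.28 CPM in uninduced libraries. The groups overlapped (log2 0.15, 95% interval -0.048 to 0.35, adjusted p = 0.258, edgeR). In experiment 2 it had 4.36, 4.36 and 2.68 CPM in induced and 4.81, 3.81 and 4.41 CPM in parental libraries. Induced library 3 was the lowest of the 12, and the log2 fold change was -0.19 (95% interval -0.53 to 0.15, adjusted p = 0.316). It turned to 0.012 without that library. NOVA1-AS1, the gene antisense to NOVA1, had at most 4 reads in any library, and since the strand setting of the counting is not given in the sources used here, reads of the 2 cannot be told apart.

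Markers of mature neurons, a list that shares RBFOX3 with the neuronal regulators below, were present at low levels. Their summed level was 26.3 to 28.7 CPM in induced and 38.8 to 41.8 CPM in uninduced libraries, and 4 of the 8 averaged over 1 CPM in each group. In experiment 2 it was 32.7 to 34.4 CPM in induced and 12.04 to 13.6 CPM in parental libraries, over 7 markers, of which 3 and 1 averaged over 1 CPM. GAD1, the enzyme that makes GABA, was the highest, with 13.6 CPM in induced and 17.4 CPM in uninduced cells, and 15.7 CPM in induced and 9.91 CPM in parental cells. MAP2, a microtubule protein of dendrites, averaged 6.97 CPM in induced and 14.4 CPM in uninduced cells, and 11.5 CPM in induced and 0.901 CPM in parental cells. SNAP25 averaged 5.01 CPM in induced and 5.83 CPM in uninduced cells, and 4.70 CPM in induced and 0.597 CPM in parental cells. GAD2 averaged 0.203 CPM in induced and 0.168 CPM in uninduced cells, and 0.395 CPM in induced and 0.131 CPM in parental cells. The markers did not all go one way: in experiment 2 the synaptic vesicle protein SYN1 averaged 0.116 CPM in induced and 0.348 CPM in parental cells, the transporter SLC17A7 0.272 and 0.339 CPM, and RBFOX3 0.826 and 0.859 CPM. In experiment 1 SYN1 averaged 0.0795 CPM in induced and 0.0548 CPM in uninduced cells, and SLC17A7 0.384 and 0.474 CPM. Experiment 1 also held SLC17A6, with 0 reads in uninduced libraries. In experiment 2 the marker sum was higher and NOVA2 lower in induced than in parental cells, while in experiment 1 both were lower in induced than in uninduced cells. The labels name HEK293 cells only, so these are levels of neuronal genes in that line. Whether they are tied to the changes of NOVA2 and ELAVL2 was not tested. In bulk RNA, fewer cells with a transcript and less of it per cell cannot be told apart.

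ELAVL2 (ENSG00000107105, chromosome 9) was higher in induced than in parental cells of experiment 2. In experiment 2 it had 40.3, 35.8 and 38.3 CPM in induced libraries, against 15.1, 15.2 and 15.96 CPM in parental ones. All induced libraries stood above all parental ones, with a fold of 2.48 (log2 1.31, SE 0.0677, adjusted p = 3.93e-13, edgeR), and 11.6% of tested genes had a larger absolute change. In experiment 1 it had 36.6, 36.2 and 36.7 CPM in induced and 37.1, 39.7 and 40.5 CPM in uninduced libraries. The groups did not overlap, but the log2 fold change of -0.10 did not pass the test (95% interval -0.22 to 0.026, adjusted p = 0.241). The 2 changes differed by 1.41 on the log2 scale (SE 0.0861, adjusted p = 2.17e-10, edgeR interaction). On the scale of all 12 libraries, uninduced cells had ELAVL2 near the level of induced cells of both experiments, and parental cells stood lower. Uninduced and parental cells come from different experiments, whose libraries differ in makeup, and were not tested against each other. ELAVL1, called in neither experiment, averaged 68.6 CPM in induced and 66.3 CPM in uninduced cells. In experiment 2 ELAVL1 averaged 97.0 CPM in induced and 99.1 CPM in parental cells.

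ELAVL1 (ENSG00000066044, chromosome 19), the widely expressed stabiliser of AU-rich mRNAs, was called in neither experiment. It had 65.1, 72.9 and 67.8 CPM in induced and 65.8, 64.7 and 68.5 CPM in uninduced libraries, at a log2 fold change of 0.050 (95% interval -0.084 to 0.19, adjusted p = 0.594, edgeR). In experiment 2 it had 98.0, 99.5 and 93.4 CPM in induced and 105.8, 94.6 and 96.9 CPM in parental libraries, at a log2 fold change of -0.030 (95% interval -0.14 to 0.079, adjusted p = 0.63). The groups overlapped in both, and neither interval reached beyond 0.19 in size on the log2 scale.

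ELAVL3 and ELAVL4, the remaining neuronal members, were at the limit of detection and were not tested. ELAVL3 had 2, 2 and 1 reads in induced and 0, 1 and 2 in uninduced libraries, and 0, 3 and 5 in induced and 5, 0 and 4 in parental libraries. ELAVL4 had 6, 2 and 1 reads in induced and 2, 2 and 0 in uninduced libraries, and 1, 6 and 4 in induced and 0, 0 and 1 in parental libraries. The reads of the groups overlapped or, for ELAVL4 in experiment 2, met at 1 read. A count of 0 allows up to 3 reads, which is 0.0554 to 0.0907 CPM over the 12 libraries and covers counting error only.

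**Figure D4:**
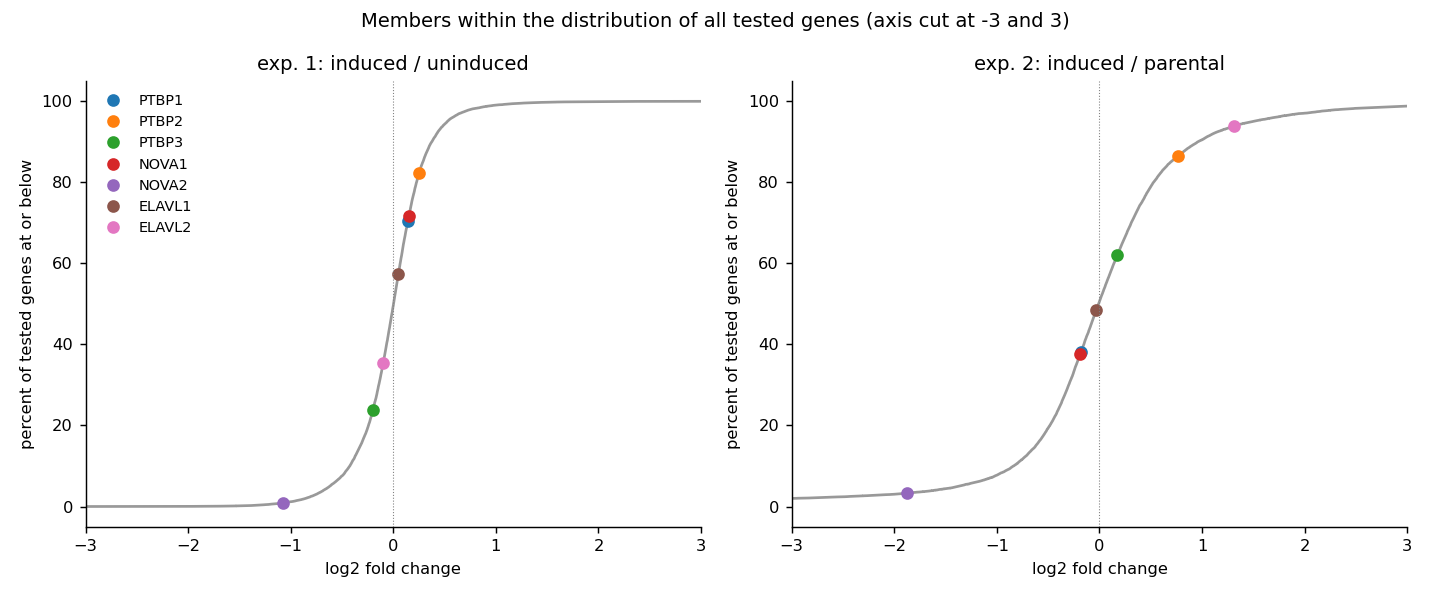
Share of all tested genes at or below a given log2 fold change (y axis, percent; x axis, log2 fold change drawn from -3 to 3), with the 7 tested members marked on the curve for induced over uninduced (left) and induced over parental cells (right). NOVA2 sits near the low end in both, at -1.08 and -1.88, and ELAVL2 and PTBP2 sit in the upper part in experiment 2, at 1.31 and 0.77.

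The genes whose profile over the 12 libraries was most like that of PTBP2 and PTBP3 were sought among 12559 genes. Likeness was Pearson's r of log2 CPM after each experiment was centred on its mean, and it is a description, since libraries share group, depth and scaling. For PTBP2 the closest were ZNF544, a zinc finger gene (ENSG00000198131, r = 0.992), FSIP2, a protein of the sperm flagellum (r = 0.990), and the homeobox gene HOXB6 (r = 0.989). FSIP2 changed by 2.13 on the log2 scale in experiment 2 and by 0.72 in experiment 1, and HOXB6 by 0.64 and 0.24. For PTBP3 they were the long non-coding RNA OIP5-AS1 (r = 0.982), the co-chaperone SGTB (r = 0.972, or 0.34 in experiment 2 and -0.34 in experiment 1 on the log2 scale) and the actin-capping protein TMOD3 (r = 0.959). NOVA2 averaged below 1 on the log2 CPM scale in an experiment and was not compared.

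Partners of the PTBP proteins and genes whose transcripts the 3 families are known to act on were counted in 5 lists. Their calls are read against the shares over all tested genes, 65.0% in experiment 2 (32.1% higher and 32.9% lower) and 20.9% in experiment 1 (10.5% higher and 10.4% lower). Among 7 partners and relatives, RAVER1, a co-repressor that binds PTBP1, rose in experiment 1 (log2 0.58, SE 0.11, adjusted p = 0.00757, edgeR) and 0 fell. In experiment 2, 4 rose and 2 fell, led by RAVER2 (log2 0.71), the paralog of RAVER1, and by HNRNPL (log2 0.45), a splicing repressor that binds CA repeats. The median log2 fold change was 0.14 in experiment 2 and 0.042 in experiment 1, against -0.0091 and 0.0026 over all tested genes. RAVER2 averaged 112 CPM in induced and 68.1 CPM in parental cells, and 111 CPM in induced and 120.3 CPM in uninduced cells. Its 2 changes differed by 0.83 (adjusted p = 9.63e-08, interaction), and those of RAVER1 by -0.60 (adjusted p = 0.00267).

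Of 23 tested genes with exons or introns under PTBP control, 11 rose and 6 fell in experiment 2 and 1 rose and 6 fell in experiment 1, with medians of 0.15 and -0.00087. Over all tested genes 65.0% were called in experiment 2 and 20.9% in experiment 1. FAS, the death receptor whose exon is skipped under PTBP1, averaged 27.4 CPM in induced and 1.95 CPM in parental cells (log2 3.82, adjusted p = 2.86e-18, edgeR). In experiment 1 FAS stood at 16.6 CPM in both groups. FLNA, the actin crosslinker filamin A, rose by 1.57 in experiment 2 on the log2 scale. CACNA1C, a calcium channel subunit, and TPM2, a tropomyosin, fell by 0.60 and 0.47 in experiment 1. Called members of this list in experiment 1 numbered 7, and 3 without induced library 1, 3 without induced library 3, 4 without uninduced library 2 and 11 without uninduced library 3. These are levels of whole genes, and no exon was measured.

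Of genes with NOVA-regulated exons, 10 of 19 tested rose and 7 fell in experiment 2, and 2 of 18 rose and 2 fell in experiment 1, with medians of 0.23 and -0.037. The 4 calls among 18 genes in experiment 1 stand close to the 20.9% of all tested genes, and in experiment 2 that share was 65.0%. NTNG1, a netrin of axon guidance, fell by 2.62 on the log2 scale in experiment 2, at 0.0991 CPM in induced and 0.618 CPM in parental cells. This fall rests on few reads. The lowest induced library had 0.0489 CPM, where 3 reads make 0.0734 to 0.0751 CPM in that group. KCNMA1, a calcium-activated potassium channel, rose by 1.83 in experiment 2 and the Notch ligand JAG1 by 1.36. In experiment 1 CLSTN1, a synaptic calsyntenin (log2 0.50, adjusted p = 0.00121, edgeR), and AGRN, the organiser of neuromuscular synapses (log2 0.48, adjusted p = 0.00638), rose. The 4 calls of this list in experiment 1 became 2 without induced library 1, without induced library 3 or without uninduced library 2.

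Of transcripts with AU-rich elements that ELAVL proteins bind, 18 of 27 tested rose and 6 fell in experiment 2, and 7 of 26 rose and 7 fell in experiment 1. The medians were 0.40 and -0.059. Over all tested genes 32.1% rose and 32.9% fell in experiment 2, and 10.5% rose and 10.4% fell in experiment 1. CDKN1A, the cell cycle inhibitor p21, averaged 49.6 CPM in induced and 8.03 CPM in parental cells (log2 2.63, adjusted p = 1.43e-17, edgeR). BDNF, a neurotrophin, averaged 3.05 CPM in induced and 0.659 CPM in parental cells (log2 2.21), and 3.23 CPM in induced and 5.12 CPM in uninduced cells (log2 -0.66, adjusted p = 0.00279). The chemokine CXCL8 averaged 0.794 CPM in induced and 0.0590 CPM in parental cells (log2 3.78), and 1.496 CPM in induced and 2.88 CPM in uninduced cells (log2 -0.94). Its rise in experiment 2 rests on few parental reads. The parental libraries had 0 to 0.115 CPM, where 3 reads make 0.0554 to 0.0690 CPM in that group. JUN, a subunit of AP-1, averaged 175 CPM in induced and 342 CPM in uninduced cells (log2 -0.97, adjusted p = 0.000228). The change of BDNF differed between experiments by 2.87 on the log2 scale (adjusted p = 1.88e-08, interaction) and that of CXCL8 by 4.73 (adjusted p = 6.2e-07). The value for CXCL8 rests on the same few parental reads. The 14 calls of experiment 1 became 8 without induced library 1, 8 without induced library 3 and 9 without uninduced library 1.

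Among regulators of the miR-124 and REST circuit and other neuronal splicing factors, 3 of 9 tested rose and 3 fell in experiment 2, and 0 of 8 rose and 2 fell in experiment 1, with medians of -0.059 and -0.062. These counts stand close to the shares over all tested genes, 65.0% in experiment 2 and 20.9% in experiment 1. The 2 calls of experiment 1 became 0 without induced library 1 or induced library 3, and 1 without induced library 2, uninduced library 1 or uninduced library 2. RCOR2, a REST corepressor, averaged 1.64 CPM in induced and 5.66 CPM in parental cells (log2 -1.79, adjusted p = 4.23e-10, edgeR). SRRM3, a splicing factor of neuronal microexons, fell by 0.87 in experiment 2. KHDRBS3, a STAR-family splicing factor, rose by 0.36 there but fell in experiment 1 (log2 -0.24, adjusted p = 0.0205, edgeR). With 1 library left out, that fall lost its call in 5 of 6 cases (adjusted p at most 0.0787). The change of KHDRBS3 differed between experiments by 0.60 (adjusted p = 1.25e-05, interaction). RBFOX3, the neuronal RBFOX paralog, fell by 0.78 in experiment 1 (adjusted p = 0.0197), a call that ended without induced library 1 (adjusted p = 0.0908) and without induced library 3 (adjusted p = 0.0802).

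The members gave few circRNAs. PTBP3 gave the most of any member, 10 of 21 in experiment 1 and 9 of 20 in experiment 2, and the most back-splice reads. At 11 positions the same back-splice junction was found in both experiments, which is 52.4% of the 21 in experiment 1 and 55% of the 20 in experiment 2. PTBP3 had 16, 11 and 11 back-splice reads in induced and 7, 9 and 6 in uninduced libraries, and 21, 14 and 10 in induced and 12, 11 and 21 in parental libraries. The groups stood apart in experiment 1 and overlapped in experiment 2. On the scale of the gene counts the log2 fold change was 0.66 in experiment 1 (95% interval -0.21 to 1.53, unadjusted p = 0.136, adjusted p = 0.976, edgeR) and 0.31 in experiment 2 (95% interval -0.59 to 1.22, adjusted p = 0.857). Of all host genes, 0% were called in experiment 1 (0 of 2207, with 84 at an unadjusted p under 0.05) and 2.11% in experiment 2 (0.936% higher and 1.17% lower in induced cells). No member was called in either.

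Set against gene reads, PTBP3 had 2.23 back-splice reads per 1000 gene reads in induced and 1.23 in uninduced cells, and 2.63 in induced and 2.40 in parental cells. The median over tested hosts was 1.67 in experiment 1 and 1.71 in experiment 2. Tested against its own gene count, the back-splice count changed by 0.85 on the log2 scale in experiment 1 (unadjusted p = 0.0673, adjusted p = 0.991, edgeR) and by 0.13 in experiment 2 (adjusted p = 0.969). In that model 0% of hosts were called in experiment 1 (0 of 1976, with 79 at an unadjusted p under 0.05, and 0 with limma) and 0.0434% in experiment 2.

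Most back-splice reads of PTBP3 came from circles that begin at exon 2 of transcript ENST00000458258 (minus strand), which lies behind an intron of 34867 bases. Junctions at the start of exon 2 took 51 of 60 PTBP3 back-splice reads (85%) in experiment 1 and 84 of 89 (94.4%) in experiment 2. The most-read circle ran from exon 2 to exon 5 (chr9:115024715-115060196, GRCh37; exons of 76, 170, 147 and 165 bases). It had 2, 3 and 7 reads in induced and 2, 5 and 4 in uninduced libraries, and 16, 6 and 8 in induced and 7, 5 and 7 in parental libraries. Neither comparison passed the test (log2 0.012 with adjusted p = 0.994, and 0.91 with adjusted p = 0.664, edgeR), where 0% of 1701 circRNAs were called in experiment 1 (77 at an unadjusted p under 0.05) and 1.68% of 2381 in experiment 2.

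The circle from exon 2 to exon 4 (chr9:115030329-115060196) had 10 reads in induced and 3 in uninduced libraries, but 5 in induced and 13 in parental libraries. Its log2 fold change was 1.52 (95% interval -0.37 to 3.41, adjusted p = 0.965) in experiment 1 and -1.04 (95% interval -3.29 to 1.20, adjusted p = 0.828) in experiment 2, so neither direction was resolved at this depth. A circle from exon 2 to exon 7 (chr9:115013209-115060196) had 7 reads in induced and 6 in uninduced libraries (log2 0.090, adjusted p = 0.965, edgeR), and 7 in induced and 2 in parental libraries, too few to test.

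**Figure D5:**
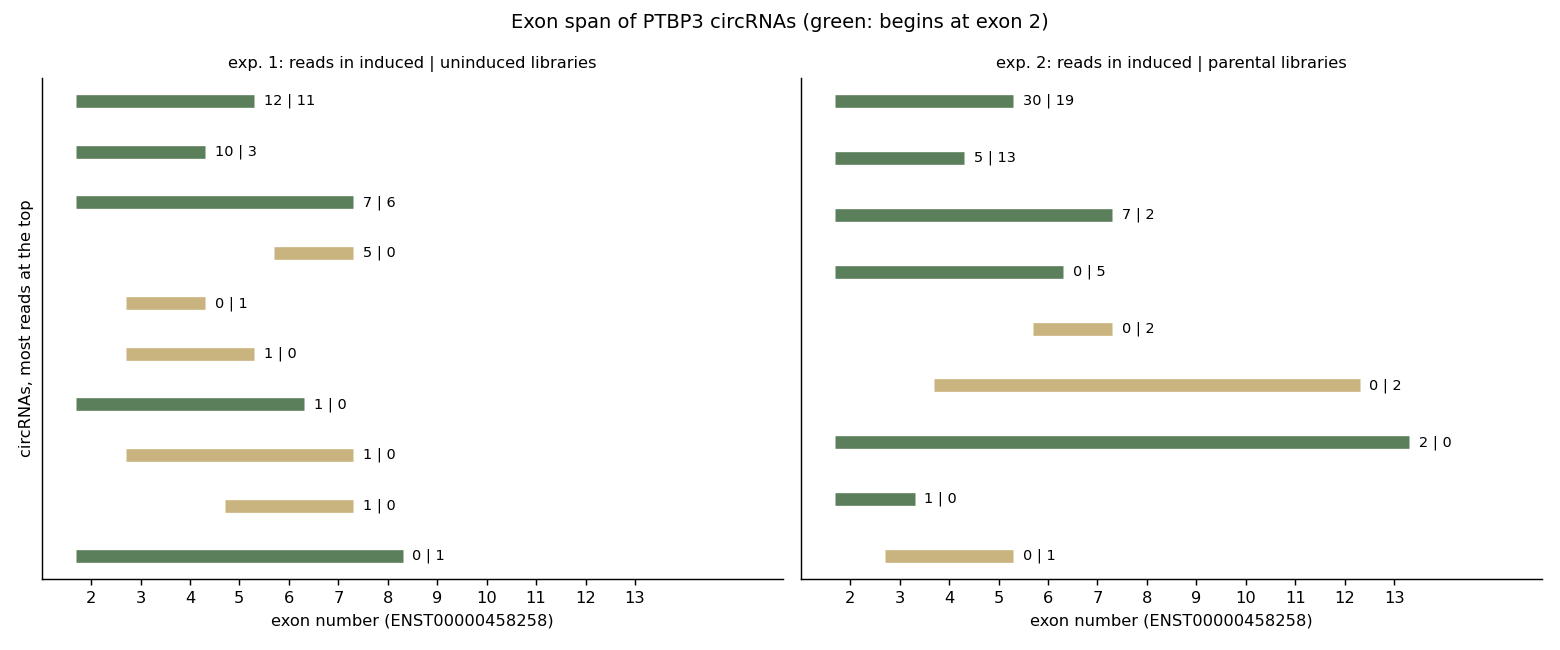
Exons of ENST00000458258 (x axis, exon number) joined in each PTBP3 circRNA, ordered by reads, in experiment 1 (left) and experiment 2 (right). Green bars begin at exon 2, and the numbers give reads summed over the 3 induced and the 3 uninduced or parental libraries. The top bar in both panels joins exons 2 to 5, with 12 and 11 reads in experiment 1 and 30 and 19 in experiment 2.

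PTBP2 had 5, 3 and 1 back-splice reads in induced and 2, 3 and 2 in uninduced libraries, and 2, 6 and 4 in induced and 2, 3 and 9 in parental libraries. The log2 fold change was 0.23 in experiment 1 (95% interval -1.37 to 1.82, adjusted p = 0.983, edgeR) and 0.084 in experiment 2 (95% interval -1.71 to 1.88, adjusted p = 0.983). Its gene count rose by 0.77 in experiment 2, and the back-splice count relative to it changed by -0.67 (95% interval -2.31 to 0.97, adjusted p = 0.888). Its most-read circle joined exons 3 to 7 of ENST00000482253 (chr1:97235259-97250810, GRCh37, plus strand), with 7 reads in induced and 9 in parental libraries (log2 -0.054, adjusted p = 0.995), and 6 in induced and 3 in uninduced libraries. Some exons of the PTBP2 and PTBP3 circles were alike in size. Exons of 76, 173, 144, 165 and 111 bases in PTBP2 (ENST00000609116) face exons of 76, 170, 147, 165 and 111 bases in PTBP3. The PTBP2 circles that begin at the 76-base exon had only 1 or 2 reads each. The most-read PTBP2 circle begins at the 173-base exon instead.

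PTBP1 gave 2 back-splice reads in induced and 1 in uninduced libraries, and 5 in induced and 4 in parental libraries. Its most-read circle was the single exon 8 of ENST00000356948 (chr19:805013-805187, GRCh37), 175 bases long between introns of 73 and 304 bases. ELAVL2 had 5 reads in induced and 5 in uninduced libraries (log2 -0.11, adjusted p = 0.983, edgeR), and 4 in induced and 0 in parental libraries. Its most-read circle in experiment 1 joined exons 2 and 3 of ENST00000380110 (chr9:23762004-23765097, GRCh37). In experiment 2, NOVA1 gave 0 reads in induced and 2 in parental libraries, and ELAVL1 gave 0 in induced and 1 in parental libraries. NOVA2, ELAVL3 and ELAVL4 gave none in any of the 12 libraries.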

How the data were processed

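Total RNA of 12 HEK293 libraries was sequenced from both ends on a NextSeq500 (TruSeq RNA kit, per the labels). The submitters' processing notes name STAR 2.5.2b and GRCh37 (hg19). The counter, the circRNA caller and the strand setting are not given in the sources used here. The authors deposited raw counts for each experiment: reads per gene, and reads per back-splice junction. Junction starts were moved to count from 1. Columns were matched to samples by experiment, condition and replicate number.

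Gene tables passed filterByExpr (at least 10 counts, total at least 15), were scaled by TMM and were tested with the two-sided quasi-likelihood F-test of edgeR 4.0.16 (R 4.3.3), with Benjamini-Hochberg adjustment over all features and a threshold of 0.05. The difference between experiments was an interaction contrast over 12 libraries. Back-splice reads, single or summed per host, needed at least 10 reads and a read in 3 libraries, and used the effective library sizes of the gene table. They were also tested against the gene count of the host with library as a block. Scripts were tested on simulated data. Depth was 34025315 to 55298749 gene reads per library. Intervals are 95% intervals.

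The members, the lists (5, with at most 4 called genes of the largest absolute change named in each) and the comparisons were chosen with earlier results of these data known. A gene that this rule would name is not reported here. For each member the most-read circRNA or every tested one is named, and the 3 most alike genes for members called in both experiments. Alternatives were DESeq2 1.42.0, its size factors, total counts, no filter, a replicate block, limma 3.58.1 and leaving out each library. RefSeq tables (GRCh38.p14) gave promoters and chromosomes. Back-splice junction and protein sequences were not used here.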

Additional observations from a re-analysis of the deposited data

Results flagged for a closer look

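The change in experiment 2 (induced against parental cells) differed from that in experiment 1 (induced against uninduced cells) by the interaction test of edgeR in 4 members. The difference was 1.41 on the log2 scale for ELAVL2 (SE 0.0861, adjusted p = 2.17e-10), 0.51 for PTBP2 (SE 0.0749, adjusted p = 1.37e-05), 0.37 for PTBP3 (SE 0.0813, adjusted p = 0.000787) and -0.32 for PTBP1 (SE 0.0930, adjusted p = 0.00707). These held in all 17 alternatives run for each, with adjusted p at most 0.0215. Over all tested genes 52.2% passed this test. The controls, the share of mitochondrial reads and the experiment differ together between the 2 comparisons and cannot be told apart.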

How the results depend on the processing

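Of the values and counts that answer a comparison, 468 alternatives kept direction and side of the threshold, 16 moved a count, 26 turned a direction, 4 gained and 11 lost a call; the cause was not tested. The number of genes called in experiment 1, 3971, became 2327 with the replicate block, and 1581 to 5231 with 1 library left out. Replicate numbers did not pair the libraries (r of same-numbered deviations 0.19, -0.11 and 0.019 in experiment 1 and 0.0048, 0.030 and -0.016 in experiment 2). PTBP3 in experiment 1 was -0.22 with total counts (adjusted p = 0.0794), -0.20 with the replicate block (adjusted p = 0.102) and -0.23 to -0.14 with 1 library left out. PTBP2 there ranged from 0.23 to 0.29, and PTBP1 in experiment 2 from -0.24 to -0.12. The NOVA2 interaction gained a call with DESeq2 (-0.83) and ranged from -1.38 to -0.42 with 1 library left out.

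No value that changed sign was called under any setting. With 1 library left out, ELAVL1 in experiment 2 ranged from -0.069 to 0.018, NOVA1 from -0.30 to 0.012, and RBFOX2 in experiment 1 from -0.036 to 0.063. RBFOX2 was also -0.0014 with DESeq2 size factors and -0.019 with total counts. In experiment 1 the PTBP3 circle of exons 2 to 5 was -0.034 with the replicate block, -0.028 with TMM on circRNA counts, -0.089 with total back-splice reads and -0.68 to 0.41 with 1 library left out. The circle of exons 2 to 7 was -0.0084 with total back-splice reads and -0.096 to 0.62 with 1 left out. The PTBP2 circle in experiment 2 was 0.027 with the replicate block, 0.0086 with TMM, 0.023 with total back-splice reads and -0.66 to 0.76 with 1 left out.

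Host sums with 1 library left out ranged from -0.22 to 0.60 (PTBP2, experiment 1), -0.31 to 0.84 (PTBP2, experiment 2) and -0.0097 to 0.56 (PTBP3, experiment 2). Against the gene count these were -0.47 to 0.30, -1.10 to 0.066 and -0.16 to 0.37. In experiment 2 the 40 circRNAs called became 21 without a filter and 14 to 41 with 1 library left out, the 54 hosts 28 to 45 with 1 left out, and the 1 host called against its gene count became 0 with limma and 0 to 1 with 1 left out. Depth limits the circRNAs: with 0 to 21 reads per member and library, intervals are wide, such as -0.21 to 1.53 on the log2 scale for the PTBP3 host sum in experiment 1.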
